A study of Mus musculus with 8 samples.

Results

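The solute carriers of the plasma membrane and of internal membranes were examined in the tibialis anterior (TA), a fast-twitch muscle of the lower leg, of aged mice with and without fast myosin binding protein-C. They were taken as the genes whose symbol follows the pattern Slc, number, letter, number, without the mitochondrial SLC25 family, and whose mean deposited count over 8 mice was at least 20. Of 265 such symbols in the table of 16686 genes, 159 met this floor and 106 did not. The members were thus chosen by their mean deposited count, and their presence above the floor is not a result. *Slc36a2* (mean count 20.0) and *Slc35d2* (20.125) lay just inside the floor, and *Slc15a3* (19.75) and *Slc16a13* (18) just outside it. Of the 159, 4 are named after a carrier but are not carriers themselves (*Slc4a1ap*, *Slc7a6os*, *Slc9a3r1* and *Slc9a3r2*).

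One library per mouse was sequenced from 4 WT and 4 C2-/- mice, all male, of the FVBN background and labelled as 22 months old, although another entry of the labels gives an age of 2 months. The C2-/- mice lack *Mybpc2*, the gene of fast myosin binding protein-C: a LoxP-bounded Neo cassette stands in place of its exons 2 to 22. Nothing in the labels says that the mice were littermates. Total expected counts lay between 25425993 and 29747692 per mouse, and 3 counts correspond to 0.101 to 0.118 CPM (counts scaled to library size), a limit that covers counting error only. *Mybpc2* lay between 4963 and 7389 CPM in WT and between 3.85 and 38.3 CPM in C2-/- (log2 fold change −8.82, SE 0.94, edgeR adjusted p = 0.0075). The summed CPM of the fast-fibre markers *Myh4*, *Myh1*, *Mylpf* and *Actn3* was 48701 to 91441 in WT and 58078 to 82171 in C2-/-, while that of 4 slow-fibre markers was 3.57 to 32.3 in WT and 2.23 to 7.45 in C2-/-. WT replicate 2 stood apart from the other 7 mice for many genes, and values that it moved strongly are also given without it.

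Solute carriers move sugars, amino acids, ions, metals, vitamins and lipids across membranes by facilitated diffusion or by coupling to the gradients of sodium or protons. In skeletal muscle, the glucose transporter GLUT4 is brought from internal vesicles to the surface by insulin and by contraction, and lactate made by glycolysis leaves fast fibres on monocarboxylate transporters. Other carriers bring in creatine, taurine and carnitine, which muscle takes up from the blood, and a further group serves the Golgi, the endoplasmic reticulum, endosomes and lysosomes.

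The carriers with the highest transcript levels were those of glucose, lactate and choline. Levels of different genes were compared as TPM, the authors' values scaled to transcript length and library size. *Slc2a4*, which encodes GLUT4, had 546, 539, 524 and 472 TPM in the WT mice and 470, 440, 443 and 406 TPM in the C2-/- mice. Its mean over 8 mice was 480 ± 51.1 TPM (SD), which is 15.5% of the summed TPM of all 159 genes. *Slc16a3*, the lactate exporter MCT4, followed with 352 ± 54.3 TPM, and the range of this gene overlapped that of *Slc2a4* although *Slc2a4* was the higher in 8 of 8 mice. *Slc44a2*, a choline transporter-like protein, had 190 ± 31.2 TPM, below *Slc16a3* in 8 of 8 mice and with no overlap. *Slc37a4*, the glucose-6-phosphate transporter of the endoplasmic reticulum, had 105 ± 25.9 TPM. The first 3 steps of this order held in every mouse, whereas 156 of the 158 steps between neighbouring genes had overlapping ranges.

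The next places were taken by *Slc38a3*, a glutamine transporter (89.4 ± 13.5 TPM), *Slc6a8*, the creatine transporter (82.4 ± 9.66 TPM), and *Slc35b1*, a nucleotide carrier of the endoplasmic reticulum (77.7 ± 6.30 TPM). *Slc35a4* (74.1 ± 6.64 TPM), the phosphate transporter gene *Slc20a2* (65 ± 5.26 TPM) and the heme transporter gene *Slc48a1* (64.8 ± 3.62 TPM) completed the first 10, which together held 51.1% of the summed carrier TPM. Of the 159 genes, 4 were above 100 TPM, 50 between 10 and 100, 81 between 1 and 10, and 24 below 1 TPM. The summed TPM of all members lay between 2904 and 3401 in WT and between 3006 and 3186 in C2-/-, so the ranges of the genotypes overlapped. These values describe whole muscle, in which fewer cells of a type and less RNA per cell cannot be told apart.

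**Figure D1:**
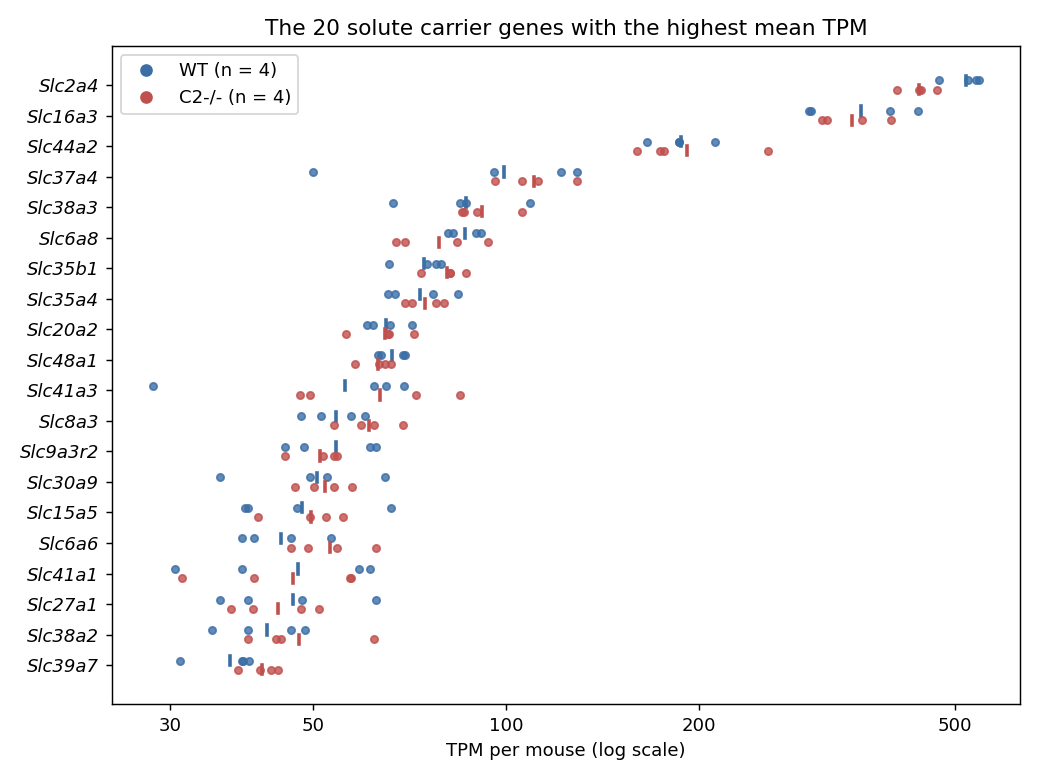
TPM (log scale) of the 20 carriers with the highest mean level, with a point for each of the 4 WT and 4 C2-/- mice and a bar at the mean of each genotype. *Slc2a4* leads with a mean of 480 TPM, and *Slc37a4* and *Slc41a3* each have 1 WT mouse, replicate 2, far to the left of the others.

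Whether the loss of fast myosin binding protein-C went with a change in these carriers was tested for every gene with edgeR's quasi-likelihood test. No carrier had an adjusted p under 0.05, where 4 of the 12542 tested genes (0.0319%) did, namely *Mybpc2*, *Eif3j1*, *Ahcy* and *Emc10*, which are not carriers and are named here for completeness. DESeq2 called 1 carrier at an adjusted p under 0.05, *Slc26a11*, against 0.311% of tested genes, and limma-voom called none. At an unadjusted p under 0.05, edgeR called 8 of 159 carriers, 5 higher (3.38% of all tested genes) and 3 lower (1.91%) in C2-/-, beside 5.29% of all tested genes in either direction. Of these, 3 were also past 1.5-fold, 2 higher (2.05% of tested genes) and 1 lower (0.981%), beside 3.03% in either direction. The CPM of 5 carriers did not overlap between genotypes, 3 higher (2.03% of tested genes) and 2 lower (1.36%), beside 3.38% in either direction. The counts of carriers therefore lay close to the background, and none of the single genes below passed adjustment over all genes. All 159 members had passed edgeR's filter on low counts, and 4 of them had a mean count under 20 in one genotype (*Slc5a3* and *Slc35d2* in WT, *Slc36a2* and *Slc4a1* in C2-/-). The median log2 fold change of the carriers was 0.01 against −0.02 for all tested genes, with 80 above 0 and 79 below 0. The median SE of a carrier was 0.20 on the log2 scale. Beside these values, the summed CPM of 4 fibro-adipogenic markers was 206 to 291 in WT and 303 to 343 in C2-/-, that of 5 tendon markers 58 to 170 and 89.6 to 235, and that of 5 endothelial markers 200 to 285 and 190 to 258. For 4 smooth muscle and pericyte markers the sum was 198 to 330 CPM in WT and 311 to 380 CPM in C2-/-. None of these markers was at 3 counts or fewer in every mouse, and the part of these cells in the carrier values was not tested. Most of the fibro-adipogenic sum was *Dcn*, with means of 235 CPM in WT and 294 CPM in C2-/-. Of the 4 fibro-adipogenic markers, only *Dcn* did not overlap between genotypes. Most of the tendon sum was *Fmod* (means of 46.2 CPM in WT and 91.3 CPM in C2-/-) and *Thbs4* (42.8 and 63.3 CPM). *Tnmd* was also higher in C2-/- (0.815 and 2.2 CPM), whereas *Scx* was slightly lower (10.9 and 9.99 CPM).

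**Figure D2:**
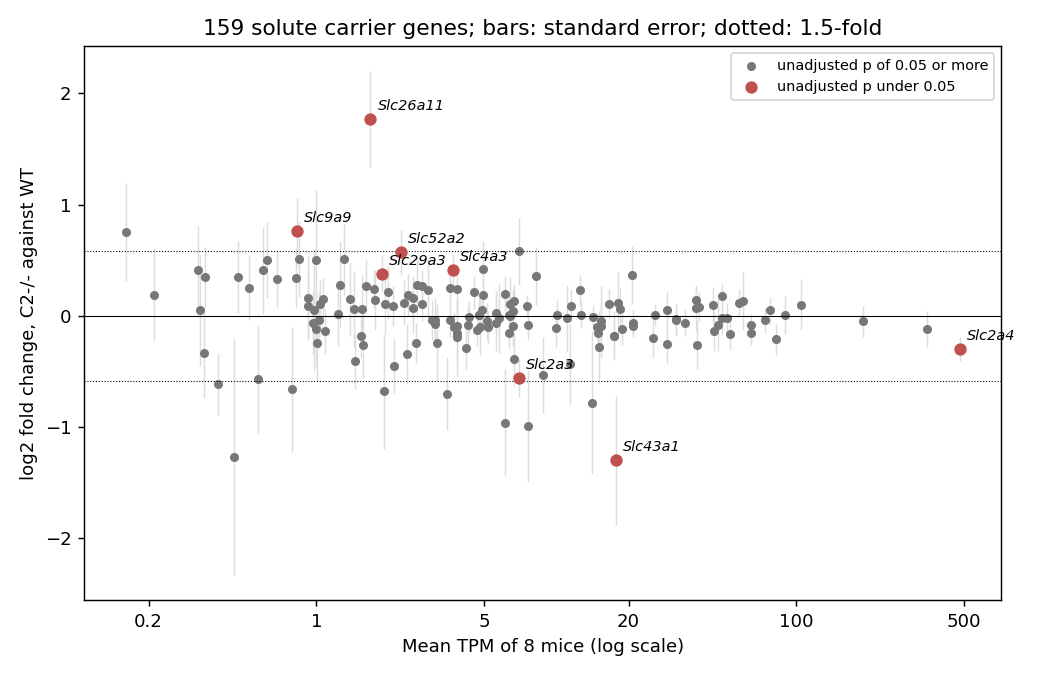
Log2 fold change of C2-/- against WT (vertical axis, bars 1 standard error) against the mean TPM of 8 mice (horizontal log axis) for the 159 carriers. The 8 genes in red had an unadjusted p under 0.05, and among them *Slc2a4* has the highest TPM.

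Classes of carriers were assigned by SLC family number and not by the substrate of each gene. A class can thus hold carriers of other substrates, as *Slc5a3* and *Slc5a6* among the hexose carriers. Among the 11 genes classed as hexose carriers, 2 had an unadjusted p under 0.05, the transporters GLUT4 and GLUT3. Both were lower in C2-/-, beside 1.91% of all tested genes that were lower at this threshold. *Slc2a4* (gene ID 20528, chromosome 11, 69942286 to 69948968, GRCm38) had 791, 817, 701 and 699 CPM in WT and 680, 584, 614 and 556 CPM in C2-/-. Every C2-/- mouse was below every WT mouse, with means of 752 ± 60.8 and 609 ± 53.3 CPM (SD, n = 4 each). The log2 fold change was −0.30 (SE 0.11, 0.81-fold), with an edgeR unadjusted p = 0.0205 and an adjusted p = 0.849. The two-sided exact permutation test on log2 CPM gave p = 0.0286, the smallest that 4 against 4 mice allow. This value follows from the lack of overlap and adds nothing to it, and 1.36% of all tested genes were lower in C2-/- without overlap. Without any single mouse the log2 fold change stayed between −0.36 and −0.26, and the unadjusted p reached 0.051 without WT replicate 1, 0.0592 without C2-/- replicate 4 and 0.0623 without C2-/- replicate 2. The share of *Slc2a4* in the summed carrier TPM was 18, 17.4, 15.4 and 16.3% in the WT mice and 15.3, 14.6, 14.7 and 12.7% in the C2-/- mice.

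*Slc2a3*, which encodes the high-affinity glucose transporter GLUT3, had 16.7, 14.3, 17.8 and 24.6 CPM in WT and 11, 13.8, 11.3 and 13.7 CPM in C2-/-. The groups did not overlap, but the WT mouse nearest to the C2-/- mice was only 14.3 against 13.8 CPM. The log2 fold change was −0.56 (SE 0.17, edgeR unadjusted p = 0.00883, adjusted p = 0.732), and without single mice it lay between −0.66 and −0.38. *Slc2a1*, which encodes the widely expressed transporter GLUT1, had 11.9, 27.9, 10 and 8.39 CPM in WT and 11.9, 10.5, 8.37 and 9.50 CPM in C2-/-. Its log2 fold change of −0.53 (SE 0.34, unadjusted p = 0.145) was −0.00 without WT replicate 2, which was far above all other mice. The summed TPM of the 11 hexose carriers was 552 to 625 in WT and 484 to 554 in C2-/-, and these ranges overlapped slightly. *Slc2a4* was the most abundant gene of the class.

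The largest difference among the carriers tested, and the smallest p, was that of *Slc26a11* (gene ID 268512, chromosome 11, 119355532 to 119381076, GRCm38), an anion transporter gene of the SLC26 family. It had 0.732, 1.35, 1.08 and 1.05 CPM in WT and 5.94, 3.01, 1.24 and 4.30 CPM in C2-/-. C2-/- replicate 3 lay within the WT range and the other 3 C2-/- mice above it. The log2 fold change was 1.77 (SE 0.43, 3.42-fold, edgeR unadjusted p = 0.00183, adjusted p = 0.571), and the DESeq2 adjusted p = 0.0206 was the smallest over its alternatives, which reached 1. Without single mice the log2 fold change lay between 1.44 and 2.06, with an unadjusted p of at most 0.00688. The gene is a low one, with a mean of 1.68 TPM.

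*Slc9a9*, which encodes a sodium-proton exchanger of endosomes, had 0.848, 0.729, 1.75 and 1.23 CPM in WT and 1.85, 1.86, 2.20 and 1.84 CPM in C2-/-. Every C2-/- mouse was above every WT mouse, by a margin of 1.84 against 1.75 CPM at the closest. The log2 fold change was 0.76 (SE 0.30, edgeR unadjusted p = 0.0296, adjusted p = 0.892), and the unadjusted p was 0.0734 without WT replicate 1, 0.0613 without WT replicate 2 and 0.0704 without C2-/- replicate 3. *Slc4a3*, the anion exchanger AE3, had 5.75 to 8.09 CPM in WT and 7.44 to 9.95 CPM in C2-/-, a log2 fold change of 0.41 (SE 0.15, unadjusted p = 0.0222). Its edgeR unadjusted p was 0.0554 without WT replicate 3, 0.0585 without C2-/- replicate 1 and 0.0508 without C2-/- replicate 3. *Slc26a11*, *Slc9a9* and *Slc4a3* were the members of the class of proton, bicarbonate, anion and cation-chloride carriers with an unadjusted p under 0.05, out of 29, and all 3 were higher in C2-/-, beside 3.38% of all tested genes that were higher at this threshold. *Slc4a3* was named after its values were seen, as was *Slc29a3* below.

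*Slc52a2*, a riboflavin transporter, had 2.81, 3.25, 4.26 and 2.42 CPM in WT and 4.73, 4.42, 4.61 and 5.2 CPM in C2-/-, with no overlap. Its log2 fold change was 0.57 (SE 0.20, edgeR unadjusted p = 0.0146, adjusted p = 0.781), and the unadjusted p was at most 0.041 without any single mouse. *Slc29a3*, a nucleoside transporter of lysosomes, had 3.80 to 5.08 CPM in WT and 4.73 to 6.65 CPM in C2-/- (log2 fold change 0.38, SE 0.17, unadjusted p = 0.0467). Its call was lost without any one of 6 mice, with an unadjusted p of 0.0556 to 0.132 without C2-/- replicates 2, 3 or 4 and 0.0581, 0.0761 and 0.107 without WT replicates 1, 2 and 4. *Slc52a2* and *Slc29a3* belong to the 10 nucleoside and vitamin carriers, of which no other had an unadjusted p under 0.05. Both were higher in C2-/-, beside 3.38% of all tested genes that were higher at this threshold. *Slc35d1*, a nucleotide sugar transporter of the endoplasmic reticulum, had 5.63, 6.93, 6.16 and 5.79 CPM in WT and 7.64, 7.36, 7.13 and 7.52 CPM in C2-/-. The groups did not overlap, yet the log2 fold change was 0.27 (SE 0.13) with an edgeR unadjusted p = 0.0567 and an adjusted p = 0.954. Without WT replicate 2 this fold change was 0.35 (edgeR unadjusted p = 0.0202, adjusted p = 0.728). Without any other single mouse the edgeR unadjusted p was 0.0719 to 0.125. It was 0.0486 with at least 10 counts in every mouse, and limma-voom with sample quality weights gave an unadjusted p = 0.0214.

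**Figure D3:**
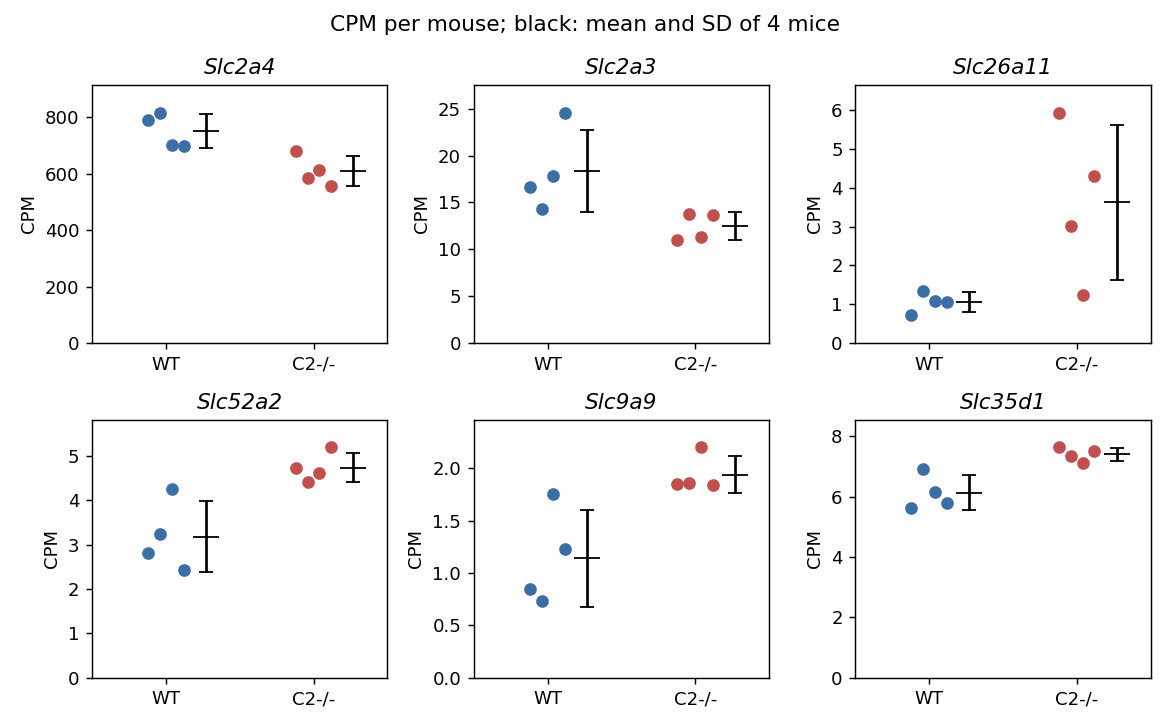
CPM (axes from 0) of 6 carriers in each of 4 WT and 4 C2-/- mice, with the mean and SD in black. *Slc2a4* and *Slc2a3* are lower and *Slc52a2*, *Slc9a9* and *Slc35d1* higher in C2-/- without overlap, while in *Slc26a11* C2-/- replicate 3 sits among the WT mice.

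A further 11 muscle transporters, of lactate, fatty acids, amino acids, osmolytes and ions, had no unadjusted p under 0.05 with all mice. *Slc16a3* had a log2 fold change of −0.12 (SE 0.16), and the lactate carrier *Slc16a1* (MCT1) had −0.18 (SE 0.17). The creatine carrier *Slc6a8* had −0.21 (SE 0.14), the taurine carrier *Slc6a6* 0.18 (SE 0.11), the carnitine carrier *Slc22a5* 0.03 (SE 0.19) and the fatty acid transport protein gene *Slc27a1* −0.14 (SE 0.18). The sodium-calcium exchanger *Slc8a1* had 0.24 (SE 0.16), the sodium-potassium-chloride cotransporter *Slc12a2* 0.05 (SE 0.16) and the glutamine and alanine carrier *Slc38a2* 0.10 (SE 0.16). The large neutral amino acid carrier *Slc7a5* had −0.34 (SE 0.27) and its partner *Slc3a2* had −0.25 (SE 0.17). Without WT replicate 2, *Slc7a5* had −0.05, *Slc3a2* −0.04, *Slc16a1* −0.04, *Slc16a3* −0.01 and *Slc22a5* −0.13, while *Slc8a1* had 0.39 with an edgeR unadjusted p = 0.0181.

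By class, the median log2 fold change was −0.04 for the 32 amino acid, peptide and osmolyte carriers, 0.06 for the 11 hexose carriers, 0.12 for the 29 ion carriers, 0.02 for the 25 metal and heme carriers and −0.01 for the 21 nucleotide sugar carriers. Among the 16 lipid, carnitine, choline and organic ion carriers, with a median of 0.04, and the 25 metal and heme carriers, no gene had an unadjusted p under 0.05. The 6 monocarboxylate and dicarboxylate carriers and the 5 phosphate and phosphosugar carriers had medians of −0.08 each and no such gene. A pathway list was set beside them. Of the 28 genes of GLUT4 traffic and insulin signalling, such as the vesicle regulator *Tbc1d4* (log2 fold change 0.08, SE 0.30), none had an unadjusted p under 0.05 and the median was −0.04. Without overlap 1 of them was lower in C2-/- and 0 higher, beside 1.36% and 2.03% of all tested genes. This was *Vamp2*, with 82.2 to 97.1 CPM in WT and 74.8 to 81.3 CPM in C2-/- (−0.16, SE 0.10). Of 11 tested partner subunits and sodium-potassium pump genes none had an unadjusted p under 0.05 either. The nearest was *Bsg*, the basigin partner of the monocarboxylate carriers (−0.37, SE 0.17, unadjusted p = 0.0594). Of 16 tested carriers with other symbols, *Cnnm2*, a magnesium transport mediator, had −0.48 (SE 0.18, unadjusted p = 0.0223). Among the 37 SLC25 genes and the 4 SLCO genes no gene had an unadjusted p under 0.05.

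**Figure D4:**
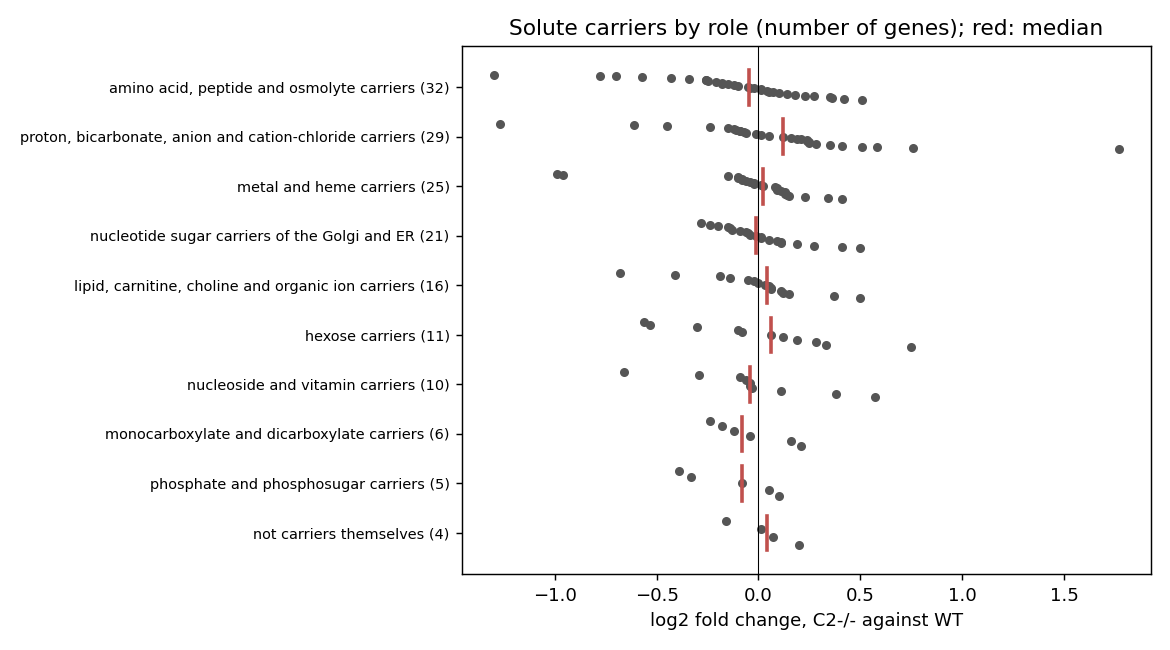
Log2 fold change of C2-/- against WT for the 159 carriers by class (assigned by SLC family number), with a point per gene and the class median in red. The class medians lie between −0.08 and 0.12, and single genes reach from −1.30 (*Slc43a1*) to 1.77 (*Slc26a11*).

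WT replicate 2 stood apart from the others more often than any other mouse. It was the highest of 8 mice for 50 of the 159 carriers (31.4%, against 27.5% of all tested genes) and the lowest for 35 (22.0%, against 24.5%). It was at least 1.5-fold above all 7 other mice for 15 carriers, 9.43% of them against 4.6% of tested genes, and 7 of the 15 were from the class of amino acid, peptide and osmolyte carriers, which holds 32 of the 159. It was at least 1.5-fold below all others for 6 carriers, 3.77% against 5.17% of tested genes. No other mouse stood 1.5-fold above all the rest for any carrier, where each did so for only 0.12% to 0.718% of tested genes. At 2-fold, 7 carriers were above all others, 4.4% against 1.51% of tested genes, and 1 was below, 0.629% against 2.03%. *Slc7a2*, the cationic amino acid transporter CAT2, had 22.9, 212, 30.4 and 46.3 CPM in WT and 24.3, 49.9, 69.2 and 38 CPM in C2-/-. *Slc43a1*, the neutral amino acid transporter LAT3, had 16.2, 81.6, 9.82 and 23.9 CPM in WT and 15.7, 18.7, 7.34 and 11.5 CPM in C2-/-. *Slc39a14*, the zinc and manganese transporter ZIP14, had 10.8, 52.4, 13.5 and 9.91 CPM in WT and 10.7 to 12.1 CPM in C2-/-. In all 3 of these genes a single WT mouse, the second, was far above the remaining 7. *Slc30a2*, a zinc exporter into vesicles, had 41.2 CPM in that mouse and 6.98 to 13.7 CPM in the others. *Slc15a4*, a peptide and histidine carrier of lysosomes, had 38.9 CPM there and 10.9 to 18.5 CPM elsewhere. *Slc4a1*, the anion exchanger of red cells, had 6.05 CPM there and 0.109 to 1.31 CPM elsewhere, with WT replicates 3 and 4 near the level of 3 counts.

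These genes set part of the genotype comparison. The one carrier called lower in C2-/- past 1.5-fold, *Slc43a1*, had a log2 fold change of −1.30 (SE 0.58, edgeR unadjusted p = 0.0477) with all mice and −0.32 (unadjusted p = 0.366) without WT replicate 2. Its call was also lost without C2-/- replicate 1, 3 or 4 and with limma-voom and DESeq2. *Slc4a1* had −1.27 (SE 1.06) with all mice and 1.47 without it, *Slc7a2* −0.78 and 0.46, *Slc39a14* −0.96 and −0.02, *Slc30a2* −0.99 and −0.12, and *Slc15a4* −0.43 and 0.16. Without WT replicate 2, 7 carriers were past 1.5-fold at an unadjusted p under 0.05, beside 3.07% of the genes tested, 4 higher in C2-/- (*Slc26a11*, *Slc52a2*, *Slc4a1* and *Slc6a9*) and 3 lower (*Slc2a3*, *Slc12a5* and *Slc10a7*). *Slc6a9*, *Slc12a5* and *Slc10a7* were named after their values were seen. The CPM of 15 carriers then did not overlap between genotypes, beside 6.48% of genes, among them *Slc8a1* and *Slc4a3* higher and *Slc2a4* and *Slc2a3* lower. *Slc22a3*, an organic cation transporter, was low in this mouse, at 0.292 CPM, against 0.762 to 2.74 CPM in the others. The summed CPM of 5 erythroid markers was 6291 in this mouse and 483 to 5883 in the other 7, with 5883 in C2-/- replicate 4 and 4342 in WT replicate 1. Nearly all of this sum was *Hba-a1* (6195 CPM in WT replicate 2), while *Hbb-bs* and *Hbb-bt* were at most 0.328 CPM in any mouse. The summed CPM of 5 immediate early genes was 699 in this mouse, 1388 in WT replicate 4, 935 in C2-/- replicate 2 and 145 to 186 in the rest. The part of these cell markers and early genes in the carrier values was not tested.

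**Figure D5:**
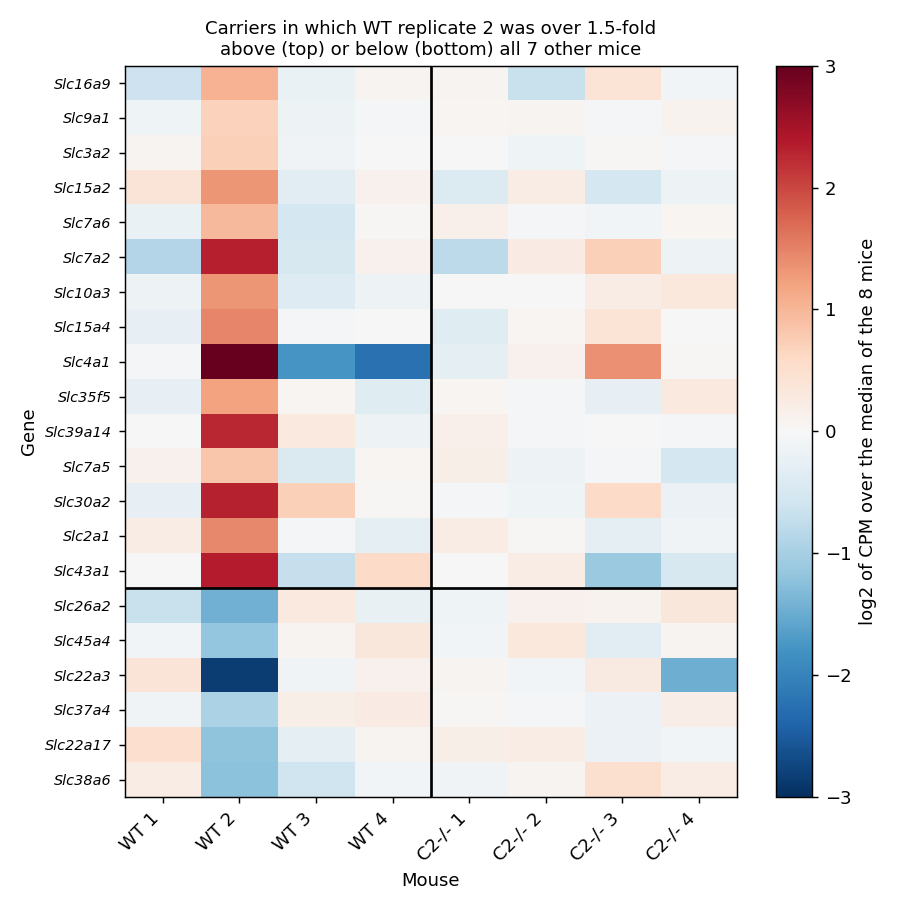
Log2 of CPM over the median of 8 mice for the 15 carriers in which WT replicate 2 was at least 1.5-fold above the 7 other mice (above the horizontal line) and the 6 in which it was at least 1.5-fold below them. The column of WT replicate 2 is red for the upper 15 genes and blue for the lower 6, and colours saturate at 3 on the log2 scale.

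Of the 7 carriers over 2-fold above all others in WT replicate 2, 4 had a promoter window in the RefSeq (GRCm38.p6) set used here, and these are shown. Each window runs from 250 bases before to 50 bases after the start of the transcript. That set held no window for *Slc7a2*, *Slc39a14* and *Slc4a1*. The windows are at chr4:119108495-119108794 (*Slc2a1*, plus strand), chr4:134343216-134343515 (*Slc30a2*, plus strand), chr2:84840073-84840372 (*Slc43a1*, plus strand) and chr5:127617343-127617642 (*Slc15a4*, minus strand). The capitals mark the GC box, GGGCGG on either strand.
Slc2a1: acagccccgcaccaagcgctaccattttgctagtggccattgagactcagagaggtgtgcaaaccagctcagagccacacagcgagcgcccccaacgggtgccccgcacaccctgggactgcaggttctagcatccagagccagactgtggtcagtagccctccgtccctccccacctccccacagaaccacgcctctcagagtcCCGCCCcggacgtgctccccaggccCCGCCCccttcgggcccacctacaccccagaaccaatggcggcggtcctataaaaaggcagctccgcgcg
Slc30a2: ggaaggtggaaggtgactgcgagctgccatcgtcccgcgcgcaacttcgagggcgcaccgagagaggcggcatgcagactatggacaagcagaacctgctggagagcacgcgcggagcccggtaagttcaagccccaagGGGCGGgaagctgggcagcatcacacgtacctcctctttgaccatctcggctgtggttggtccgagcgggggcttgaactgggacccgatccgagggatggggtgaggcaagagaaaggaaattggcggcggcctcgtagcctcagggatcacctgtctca
Slc43a1: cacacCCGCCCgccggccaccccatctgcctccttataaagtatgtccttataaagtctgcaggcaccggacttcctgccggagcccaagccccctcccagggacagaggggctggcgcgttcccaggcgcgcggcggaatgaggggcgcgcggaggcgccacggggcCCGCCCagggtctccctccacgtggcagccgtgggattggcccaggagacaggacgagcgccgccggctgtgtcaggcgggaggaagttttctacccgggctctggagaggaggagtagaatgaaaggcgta
Slc15a4: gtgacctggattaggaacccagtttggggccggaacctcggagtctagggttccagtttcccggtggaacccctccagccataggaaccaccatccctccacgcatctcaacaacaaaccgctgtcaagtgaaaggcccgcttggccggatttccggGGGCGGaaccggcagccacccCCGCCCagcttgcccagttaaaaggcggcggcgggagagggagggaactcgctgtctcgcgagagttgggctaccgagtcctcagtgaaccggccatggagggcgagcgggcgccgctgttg
The GC box was in 66.1% of the 168 promoter windows of the 123 carriers that matched and in 35.7% of the 32851 windows of all genes. The E-box CANNTG was in 67.3% and 72.3%, TGACGTCA in 0.595% and 1.79%, and TGATGNAA in 3.57% and 3.97%. The carriers were chosen by their mean count and the windows of all genes were not. The shares are thus of unlike sets, and a difference between them is not shown to be a trait of carriers. A match of letters is a description of these windows and not a site.

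The exons of 8 of the 43 genes named by the rule share bases with a gene on the opposite strand (*Slc15a4*, *Slc20a2*, *Slc29a1*, *Slc2a1*, *Slc35a4*, *Slc48a1*, *Slc7a2* and *Slc8a1*), with 1.14% to 15.6% of their exon bases. The sources used here do not state that counting used the strand, so the counts of these genes are uncertain to that extent.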

How the data were processed

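The TA muscle of 8 mice was profiled by RNA-seq. The authors deposited expected counts of reads per gene and TPM values for each mouse, from reads aligned to GRCm38. The submitters' processing notes name HISAT, Bowtie2 and DESeq2. The 8 columns of FPKM values and the authors' own fold changes, p-values and q-values in the deposited table were not used. Of 16687 rows, 1 without a gene ID was left out, and 24 symbols were restored from gene IDs.

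Counts were rounded (5.5% to 6.53% of values per mouse were not whole), filtered with edgeR's filterByExpr, which left 12542 genes, and scaled by TMM factors of 0.929 to 1.03. Genotypes were compared with edgeR 4.0.16 (R 4.3.3) quasi-likelihood tests, with Benjamini-Hochberg adjustment over all tested genes. The SE was the log2 fold change over the root of F. Alternatives were RLE factors, other filters, limma-voom (limma 3.58.1), DESeq2 1.42.0, blocking on the replicate number, and omission of single mice. The scripts were tested on simulated data.

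Named genes were *Slc2a4*, muscle transporters, carriers past 1.5-fold with unadjusted p under 0.05 or without overlap, the 2 highest TPM levels of each class and the 4 largest within-genotype ratios. *Slc4a3*, *Slc29a3* and the carriers over 2-fold above all others in 1 mouse were added after values were seen. The members and lists were chosen with earlier results of these data known. The labels number the replicates 1 to 4 in each genotype but name no pairing. The edgeR p-values set the genotype difference against the variation between these mice, estimated with information shared over all tested genes.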

Additional observations from a re-analysis of the deposited data

Results flagged for a closer look

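A mouse was flagged when its gap to the nearest other mouse was large against the range of the 4 mice. A flag can thus stand for a small difference in CPM. Of 88 groups of 4 mice examined, 14 held a flagged mouse, and in 7 of the 14 it was WT replicate 2. Chance flags about 1 in 20 groups of genes not chosen for their spread, but some genes here were named because 1 mouse stood far above the others or for a wide range within a genotype, so the number flagged is a description and is not set against that rate. In that mouse *Slc15a4* had 38.9 CPM, *Slc39a14* 52.4, *Slc3a2* 54.4, *Slc48a1* 105, *Slc4a1* 6.05 and *Slc7a2* 212, all above the other WT mice, and *Slc41a3* had 37.3, below them. Among the C2-/- mice, replicate 3 was flagged above the others for *Slc38a2* (155 CPM), *Slc30a2* (12.3 CPM), *Slc4a1* (1.31 CPM), *Slc9a9* (2.2 CPM) and the remaining *Mybpc2* (38.3 CPM). For *Slc9a9* the difference was small, and the flag arose because the other C2-/- mice lay close together. Replicate 4 was flagged above the others for *Slc44a2* (458 CPM), and replicate 2 below them for *Slc16a1* (32 CPM).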

How the results depend on the processing

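The count of 3 carriers past 1.5-fold at an unadjusted p under 0.05 became 5 with at least 10 counts in every mouse, with limma-voom and with a log2 cutoff of 0.5, 6 with sample quality weights and 6 with the replicate block. Leaving out single mice gave 2 to 9, with 9 without WT replicate 3, 8 without C2-/- replicate 2, 7 without WT replicate 2 and 6 without WT replicates 1 or 4. Of all tested genes, 3.03% were called in the main fit and 3.07% without WT replicate 2. This share was not taken for the other settings, so their counts have no background to be read against. The labels do not say whether the replicate numbers pair the mice. The correlations of deviations between mice of the same number were 0.27, 0.04, −0.05 and 0.02. They cannot decide this, since mice of unlike number were not compared. The carriers with adjusted p under 0.05 went from 0 to 1 with DESeq2. The carriers without overlap went from 5 to 15 without WT replicate 2, 12 without WT replicate 3, 10 without C2-/- replicate 4, 9 without WT replicate 4 or C2-/- replicate 2, 8 without C2-/- replicate 3, and to 7 otherwise. This rise follows in part from the construction, since fewer mice overlap more rarely. Among all tested genes, the share without overlap was 3.38% with all mice and 6.48% without WT replicate 2. It was not taken without the other mice, so those counts are a description only. *Slc2a4* stayed negative throughout, −0.36 to −0.26 without single mice. The other genes of carrier function with unadjusted p under 0.05 went from 1 to 2 without a filter and with the replicate block, 3 with DESeq2, 5 with quality weights and 0 to 5 without single mice. These genes came from lists with 28, 11, 16, 37 and 4 genes tested in the main fit. In that fit 5.29% of all tested genes had such a p, and this share was not taken for the other settings. For the other named genes, 552 of 627 alternative values kept their side and direction, 22 lost and 9 gained an unadjusted p under 0.05, and 44 changed sign. Sign changes under quality weights were *Slc15a4* to 0.00, *Slc22a3* to −0.21, *Slc22a5* to −0.06, *Slc29a1* to 0.06, *Slc37a4* to −0.06, *Slc41a3* to −0.08, *Slc46a3* to −0.06, *Slc4a1ap* to −0.01, *Slc7a2* to 0.14 and *Slc4a1* to 1.39. *Slc4a1* was 0.36 with limma-voom and 0.10 with the replicate block. The cause was not tested.
Genes whose sign changed without single mice ranged as follows: *Slc12a2* −0.05 to 0.14, *Slc15a4* −0.60 to 0.16, *Slc16a10* −0.13 to 0.03, *Slc22a3* −0.30 to 0.32, *Slc22a5* −0.13 to 0.19, *Slc27a1* −0.25 to 0.04, *Slc29a1* −0.11 to 0.07, *Slc35a4* −0.08 to 0.01, *Slc37a4* −0.10 to 0.24, *Slc38a2* −0.07 to 0.16, *Slc38a3* −0.09 to 0.15, *Slc41a3* −0.07 to 0.25, *Slc44a2* −0.20 to 0.02, *Slc46a3* −0.06 to 0.27, *Slc4a1* −1.77 to 1.47, *Slc4a1ap* −0.07 to 0.07, *Slc50a1* −0.07 to 0.19 and *Slc7a2* −1.09 to 0.46.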
